A study of Mus musculus with 6 samples.

Results

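The adrenergic signalling genes of the heart were examined in mice with low vesicular acetylcholine transporter (VAChT) and in wild-type mice. The set was chosen by name and holds 9 genes: the receptors Adrb1, Adrb3, Adra1a, Adra1b and Adra1d, the G protein subunit Gnas, the adenylyl cyclases Adcy5 and Adcy6, and the receptor kinase Grk5. All probe sets whose annotation gives one of these symbols were taken. Of the 9 genes, 4 are listed with a probe set of their own (Adra1b, Adcy5, Adcy6 and Grk5, 1 probe set each), and 1, Gnas, is listed only on a probe set shared with its antisense gene Gnasas1. The other 4 (Adrb1, Adrb3, Adra1a and Adra1d) were not analysed here. The results therefore concern 5 of the 35556 probe sets of the array and include no beta receptor.

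Noradrenaline from sympathetic nerves acts on beta receptors of cardiac muscle cells, which couple through the stimulatory G protein (Gnas encodes its alpha subunit) to adenylyl cyclase. The cyclic AMP so formed activates protein kinase A, which phosphorylates proteins of calcium handling and of the sarcomere and so raises the force and rate of the beat. Alpha1 receptors couple instead through Gq to phospholipase C, and receptor kinases such as Grk5 phosphorylate active receptors so that arrestins bind them and the signal ends. Acetylcholine from vagal nerves opposes the beta pathway through muscarinic receptors and inhibitory G proteins.

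RNA of hearts from male mice aged 3 months was hybridised to 6 Mouse Gene 1.0 ST arrays. Of these, 3 were labelled VAChT KD, homozygous for an allele that lowers VAChT throughout the body and not in the heart alone, and 3 were labelled WT. No treatment was given to either group. The labels name the heart and the strain C57BL/6, whereas the series title and the study's methods name ventricles and the methods a mixed background of few backcrosses. As 2 RNA samples were pooled for each array, the spread between arrays is a spread between pools. Arrays are named below by their labels and numbers.

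Values are RMA signals on the log2 scale, on which a difference of 1 is a doubling. Array medians were 6.84 to 6.89 on VAChT KD arrays and 6.91 to 6.98 on WT arrays. All VAChT KD medians thus lay below all WT medians, and this offset cannot be told apart from the group. Any 2 arrays correlated at 0.982 to 0.994 over all probe sets. Taken as background, 1035 probe sets of olfactory receptors had a median of 4.71 and a 95th percentile of 6.5. The targeted gene did not separate the labels: Slc18a3, which encodes VAChT, read 7.24, 6.77 and 7.58 on VAChT KD 1, 2 and 3, against 7.31, 7.42 and 7.11 on WT 1, 2 and 3 (difference -0.08, SE 0.20, adjusted p = 0.873 by limma). The position of its probes relative to the modified stretch of the allele was not determined. Both arrays numbered 2 stood apart from their labels at Ogdhl, an oxoglutarate dehydrogenase-like gene, which read 7.06, 10.17 and 7.09 on VAChT KD 1, 2 and 3, against 9.60, 7.21 and 10.33 on WT 1, 2 and 3. The study lists Ogdhl as lower in VAChT KD, with the largest fold change of its list and a decrease by qPCR. With the labels as deposited the difference was -0.94 (SE 1.03), or 0.521-fold (adjusted p = 0.7 by limma). The decrease in the study's list is larger than this. With the arrays numbered 2 exchanged, Ogdhl would read 7.06, 7.21 and 7.09 in VAChT KD, against 9.60, 10.17 and 10.33 in WT. Whether the labels of these arrays were exchanged was not tested. All comparisons here follow the labels, and an exchange would alter the differences given below. Results are therefore also given without these 2 arrays. On VAChT KD 1 the highest signal was 13.70, against 14.71 to 14.90 on the other 5 arrays, and all 65 probe sets with a median of at least 14 on the others read lower there by more than 0.5. All 7 cardiomyocyte markers lay above the olfactory 95th percentile on average. Their mean level was 13.23 to 13.93 on VAChT KD arrays and 13.85 to 13.88 on WT arrays, with the low value on VAChT KD 1.

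No difference between VAChT KD and WT hearts passed the test at any of the 5 adrenergic probe sets, and the 95% intervals left room for changes of up to 1.24-fold at 4 of them and 1.78-fold for Grk5. By limma, with p adjusted by Benjamini-Hochberg over the whole array, 0 of 5 had an adjusted p of 0.05 or less and the smallest was 0.488, where 0.00281% of all probe sets (1 of 35556) were called. At an unadjusted p of 0.05, again 0 of 5 passed in either direction, against 3.93% of all probe sets that were higher and 7.81% that were lower in VAChT KD. With a change of 1.3-fold in addition, 0 of 5 passed, against 3.79% of all probe sets. The VAChT KD and WT arrays overlapped for each of the 5, whereas they did not overlap for 19.2% of all probe sets. Centring each array on its median turned the split of all calls at the unadjusted threshold, giving 2390 higher and 1300 lower in place of 1398 and 2776, and again no adrenergic probe set passed. Of the 5 differences 4 were positive and 1 was negative, with a median of 0.07 beside -0.02 over all probe sets. The 5 probe sets had mean signals above the olfactory 95th percentile. In bulk heart RNA, fewer cells of a type and less RNA per cell cannot be told apart.

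**Figure D1:**
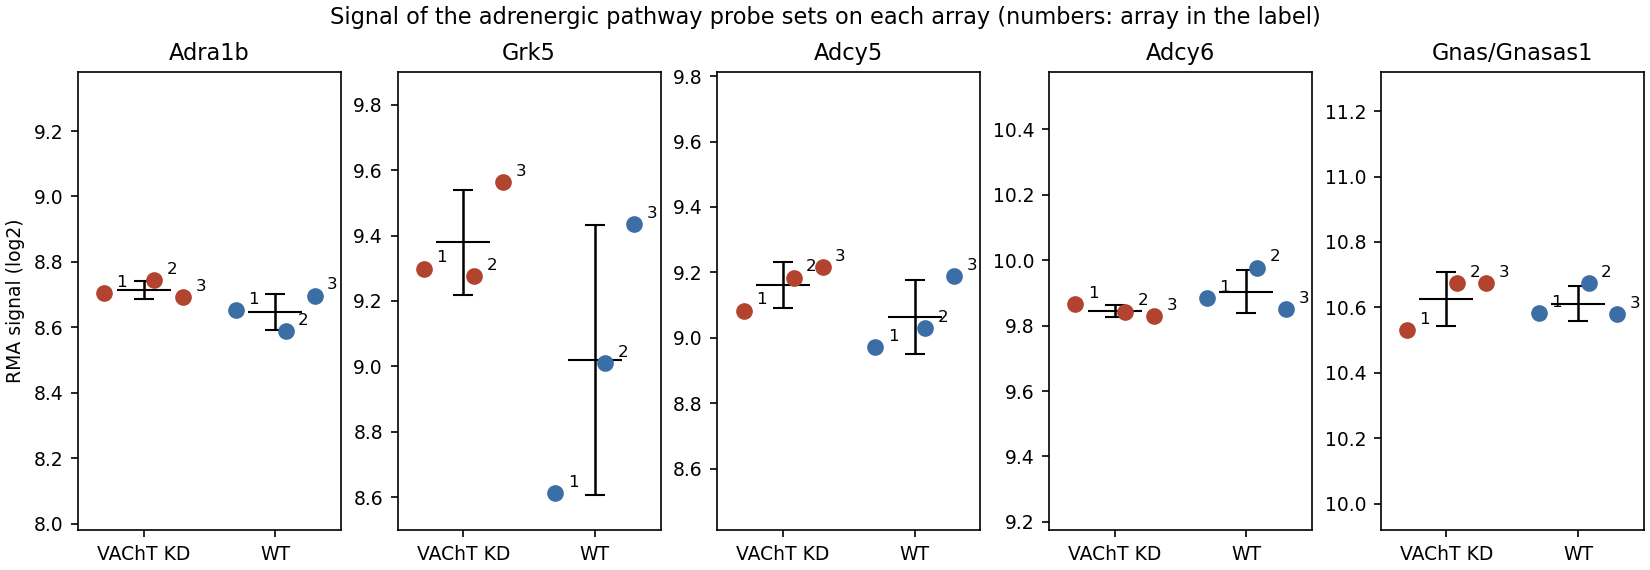
RMA signal (log2, vertical axis) of the 5 adrenergic probe sets on each array, VAChT KD (red) left of WT (blue), with the number of the array beside each point. Horizontal lines are means and bars are SD (n = 3 arrays in each group); each panel spans the same number of log2 units around its own centre, and the groups overlap in all 5 panels, with the widest spread for Grk5 on WT arrays (8.61 to 9.44).

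Adra1b encodes the alpha1B receptor, which couples to Gq and phospholipase C and was the only receptor of the set with a value. It read 8.70, 8.74 and 8.69 on VAChT KD 1, 2 and 3, against 8.65, 8.59 and 8.70 on WT 1, 2 and 3. The 6 arrays were close together, and WT 3 lay at the level of the VAChT KD arrays. The mean was 8.71 ± 0.03 in VAChT KD and 8.65 ± 0.05 in WT (SD, n = 3 each), a difference of 0.07 with a 95% interval of -0.11 to 0.24, or 0.929-fold to 1.18-fold (adjusted p = 0.7 by limma). Without both arrays numbered 2 the difference was 0.02 (-0.26 to 0.31).

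Gnas encodes the alpha subunit of the stimulatory G protein that links beta receptors to adenylyl cyclase. Its probe set also carries the antisense gene Gnasas1, and the signals of both cannot be told apart. The Gnas/Gnasas1 probe set read 10.53, 10.67 and 10.67 on VAChT KD 1, 2 and 3, against 10.58, 10.67 and 10.58 on WT 1, 2 and 3. The lowest value was that of VAChT KD 1, and both arrays numbered 2 and VAChT KD 3 shared the highest level. The means were 10.63 ± 0.08 in VAChT KD and 10.61 ± 0.05 in WT (SD, n = 3 each). The difference of 0.01 had an interval of -0.18 to 0.20, or 0.885-fold to 1.15-fold (adjusted p = 0.951 by limma), and its sign changed when single arrays were left out (-0.01 to 0.06). Without both arrays numbered 2 it was 0.02 (-0.28 to 0.32).

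Adcy5 and Adcy6 encode the principal adenylyl cyclases of heart muscle, both stimulated by the stimulatory G protein and restrained by calcium. Adcy5 read 9.08, 9.18 and 9.22 on VAChT KD 1, 2 and 3, against 8.97, 9.03 and 9.19 on WT 1, 2 and 3. WT 3 lay within the range of the VAChT KD arrays, and WT 1 was lowest. The means were 9.16 ± 0.07 in VAChT KD and 9.06 ± 0.11 in WT (SD, n = 3 each), and the difference of 0.10 had an interval of -0.11 to 0.31, or 0.926-fold to 1.24-fold (adjusted p = 0.639 by limma). Without both arrays numbered 2 it was 0.07 (-0.27 to 0.41).

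Adcy6 read 9.87, 9.84 and 9.83 on VAChT KD 1, 2 and 3, against 9.88, 9.98 and 9.85 on WT 1, 2 and 3. Only WT 2 stood above the rest. The means were 9.85 ± 0.02 in VAChT KD and 9.90 ± 0.07 in WT (SD, n = 3 each). This was the negative difference among the 5, at -0.06 with an interval of -0.23 to 0.12, or 0.85-fold to 1.09-fold (adjusted p = 0.748 by limma). It became 0.01 when arrays were centred on their medians. Without both arrays numbered 2 it was -0.02 (-0.31 to 0.27).

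Grk5 encodes a receptor kinase that is abundant in heart and ends signalling by active receptors. It had the largest difference and the widest spread of the 5. It read 9.30, 9.28 and 9.56 on VAChT KD 1, 2 and 3, against 8.61, 9.01 and 9.44 on WT 1, 2 and 3. WT 1 and WT 2 lay below all VAChT KD arrays, and WT 3 lay above VAChT KD 1 and 2. The VAChT KD arrays spanned 0.29 and the WT arrays 0.82 on the log2 scale. The means were 9.38 ± 0.16 in VAChT KD and 9.02 ± 0.41 in WT (SD, n = 3 each). The difference of 0.36 (SE 0.20) corresponds to 1.28-fold, with an interval of 0.927-fold to 1.78-fold, and did not pass the test (adjusted p = 0.488 by limma). Single arrays set its size: it was 0.16 without WT 1 and 0.57 without WT 3, where the interval was 0.19 to 0.94 and the adjusted p 0.367 by limma. Without both arrays numbered 2 it was 0.41 (-0.27 to 1.08, adjusted p = 0.574 by limma). At 47 of 2785 probe sets with medians between 10 and 12, WT 1 also read lower than the other arrays by more than 0.5. On the other 5 arrays the number was 5 to 15. Grk5, with a mean of 9.20, lay below that range of signal, and the part of this in the Grk5 value was not tested.

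**Figure D2:**
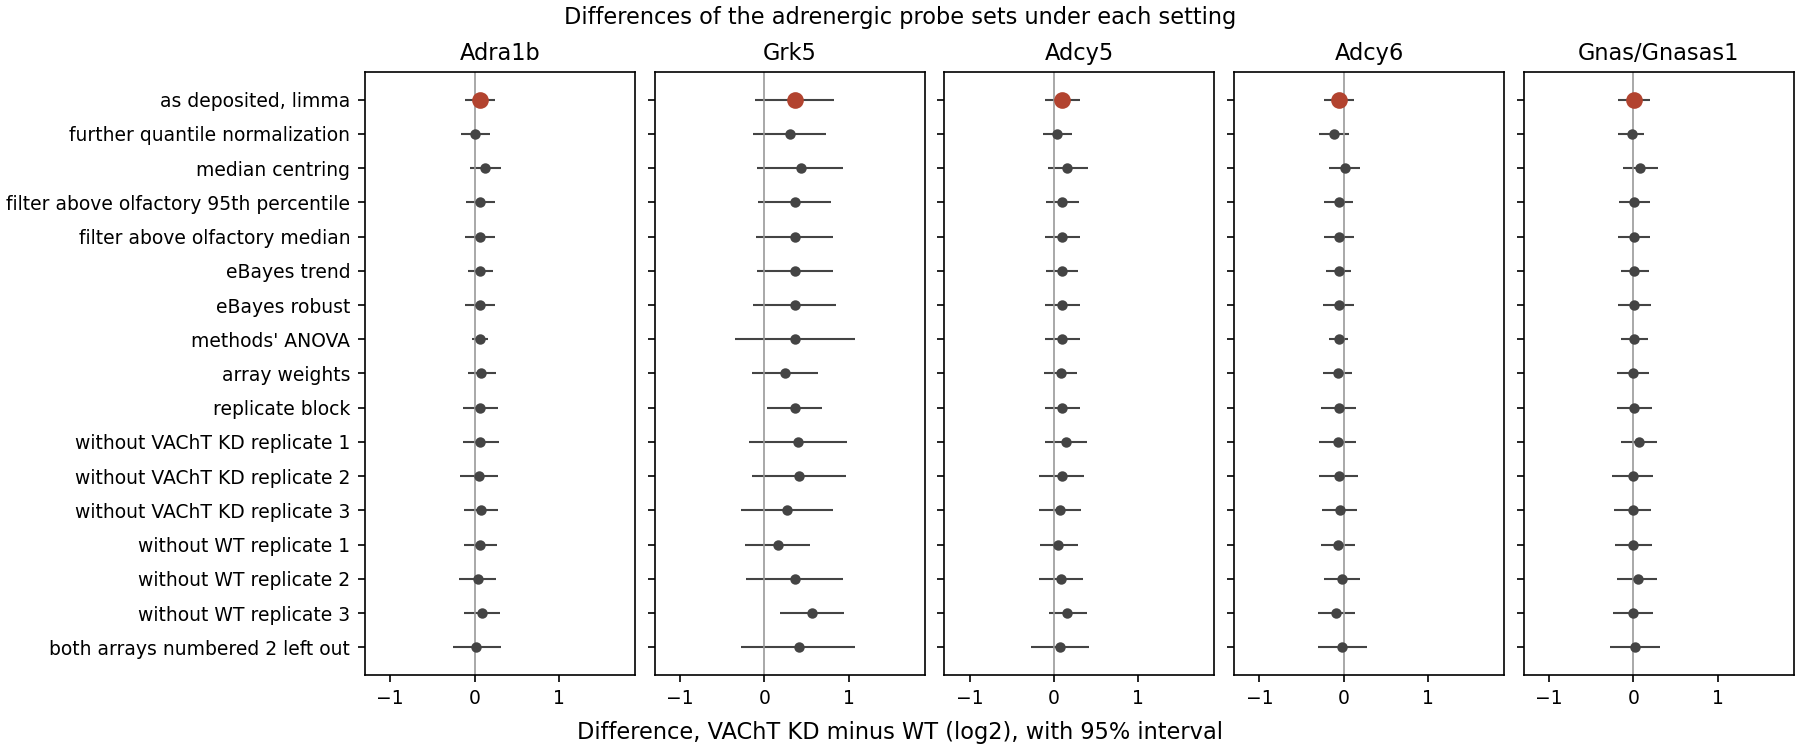
Difference in signal (VAChT KD minus WT, log2, horizontal axis) of the 5 adrenergic probe sets as deposited (red) and under 16 other settings (grey), with 95% intervals as bars. Grk5 runs from 0.16 without WT 1 to 0.57 without WT 3, whereas Adra1b, Adcy5, Adcy6 and Gnas/Gnasas1 stay between -0.11 and 0.16.

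Across the 6 arrays Grk5 and Adcy5 varied together (Pearson r = 0.92), and Adra1b and Adcy6 varied in opposite directions (r = -0.90). The other pairs of the 4 probe sets with 1 symbol had r of -0.70 to 0.68, and those with Gnas/Gnasas1 -0.15 to 0.32. These are descriptions over 6 arrays that share their normalization. The patterns most like each gene, among 21785 probe sets with 1 symbol of other genes, were those of Gramd3 and Smarcb1 for Grk5 (r = 0.998 each), Ube4b (0.999) and Arfgef2 (0.997) for Adcy5, Tln2 (0.989) and Erbin (0.986) for Adra1b, and Pusl1 (0.997) and Jrk (0.987) for Adcy6. For Gnas/Gnasas1 they were Rpl36a (0.998) and Lgals9 (0.984). The number of probe sets with r over 0.95 was 272 for Grk5 and 224 for Adcy5. It was 18 for Adra1b, 28 for Adcy6 and 45 for Gnas/Gnasas1, so that the patterns of Grk5 and Adcy5 were the more widely shared on these arrays. The genes named are the highest of 21785 values of r, each over only 6 arrays. How many unrelated probe sets would reach such r was not determined.

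The rest of the pathway was followed in 9 lists of 112 genes, of which 104 were measured by a probe set of their own. None of the 104 had an adjusted p of 0.05 or less, and the smallest was 0.409 by limma. At an unadjusted p of 0.05, 1 of 104 (0.962%, against 3.93% of all probe sets) was higher in VAChT KD and 6 of 104 (5.77%, against 7.81%) were lower. None of these 7 reached 1.3-fold. The median difference was 0.01, and the range was -0.33 to 0.31. The groups did not overlap for 13 of the 104, where they did not overlap for 19.2% of all probe sets.

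Among the alpha2 receptors, which inhibit adenylyl cyclase and the release of noradrenaline, only Adra2c was measured. It read 6.23, 6.13 and 5.95 on VAChT KD 1, 2 and 3, against 6.43, 6.40 and 6.42 on WT 1, 2 and 3. All VAChT KD arrays lay below all WT arrays, at levels below the olfactory 95th percentile. The difference was -0.31 (SE 0.09, adjusted p = 0.409 by limma), and without both arrays numbered 2 it was -0.34 and no longer passed the unadjusted p. Markers of sympathetic neurons, in which alpha2 receptors act on release, had a mean level of 6.06 to 6.18 on VAChT KD arrays and 6.22 to 6.39 on WT arrays. Of the 5 measured, 4 lay below the olfactory 95th percentile. Th and Slc6a2 (noradrenaline synthesis and reuptake) were lower at an unadjusted p of 0.05, by -0.34 and -0.20. The others did not pass, with Snap25 at -0.23 and the noradrenergic genes Dbh at 0.01 and Slc18a2 at -0.01. No marker of this list was lower at that threshold without VAChT KD 1, VAChT KD 3 or WT 1, with further quantile normalization or with array weights. The part of these nerves in the Adra2c value was not tested. Probe sets at or below the olfactory 95th percentile were lower at the unadjusted threshold in 9.43% of 15108, against 6.61% of the 20448 above it.

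The G protein list, which holds the inhibitory, Gq-class, beta and gamma subunits, had 3 of 25 genes lower and 0 higher at the unadjusted p, beside 7.81% lower and 3.93% higher of all probe sets. The 3 are gamma subunits, and the other 7 gamma subunits of the list did not pass (-0.18 to 0.20). Gng13 read 6.68, 6.58 and 6.58 on VAChT KD 1, 2 and 3, against 7.08, 6.88 and 6.85 on WT 1, 2 and 3 (-0.32, SE 0.09), with no overlap between groups. Gng7 read 7.0, 7.21 and 6.84 on VAChT KD 1, 2 and 3, against 7.51, 7.26 and 7.23 on WT 1, 2 and 3 (-0.32, SE 0.12). Gng3 read 5.87, 5.58 and 5.76 on VAChT KD 1, 2 and 3, against 5.98, 6.07 and 5.94 on WT 1, 2 and 3 (-0.26, SE 0.10), below the olfactory 95th percentile. The median of the list was -0.01. Without both arrays numbered 2, Gng7 (-0.45) alone of the 104 genes was lower at the unadjusted p, and the beta subunit Gnb3 (0.42) alone was higher.

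Of the 8 other adenylyl cyclases, 1 was lower and 0 were higher (7.81% and 3.93% of all probe sets), with a median of -0.05. Adcy8, a cyclase stimulated by calcium and known mainly from brain, read 5.65, 5.72 and 5.57 on VAChT KD 1, 2 and 3, against 5.81, 5.79 and 6.02 on WT 1, 2 and 3. All VAChT KD arrays were lower (-0.23, SE 0.09, adjusted p = 0.419 by limma), again at a level below the olfactory 95th percentile. Of the RGS proteins, which speed the shut-off of G protein alpha subunits, 1 of 9 was higher and 1 lower (3.93% and 7.81% of all probe sets). Rgs6, which acts on muscarinic signalling in the pacemaker, read 8.63, 8.69 and 8.82 on VAChT KD 1, 2 and 3, against 8.15, 8.48 and 8.58 on WT 1, 2 and 3 (0.31, SE 0.13, adjusted p = 0.417 by limma). Rgs16 read 7.19, 7.39 and 7.40 on VAChT KD 1, 2 and 3, against 7.59, 7.59 and 7.48 on WT 1, 2 and 3 (-0.23, SE 0.09, adjusted p = 0.412 by limma). For both genes the groups did not overlap.

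In the other 5 lists no gene passed the unadjusted p. The median was -0.02 over 6 other receptor kinases and arrestins, with Grk1 at -0.18 (SE 0.10) and Grk6 at 0.17 (SE 0.14) nearest to the threshold. It was 0.02 over 19 genes of protein kinase A, its anchors and the cyclic AMP sensor Epac, where the inhibitor Pkib was at -0.22 (SE 0.11) and the mitochondrial anchor Akap1 at 0.13 (SE 0.08). Effectors of alpha1 receptors had a median of 0.07 over 14 genes. Prkca, a protein kinase C of heart muscle, was at 0.18 (SE 0.09) and the calcium channel of the endoplasmic reticulum Itpr3 at -0.12 (SE 0.08). Without WT 1 that median was -0.01. CREB factors, coactivators and target genes had a median of 0.06 over 10 genes, among them the phosphatase Dusp1 at -0.33 (SE 0.15), which read 11.18, 11.61 and 11.54 on VAChT KD 1, 2 and 3, against 11.86, 11.91 and 11.55 on WT 1, 2 and 3. The VAChT KD and WT arrays overlapped for Dusp1, and its difference was -0.20 without VAChT KD 1. Without WT 1 the median of this list was 0.01, and with further quantile normalization it was 0.00.

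**Figure D3:**
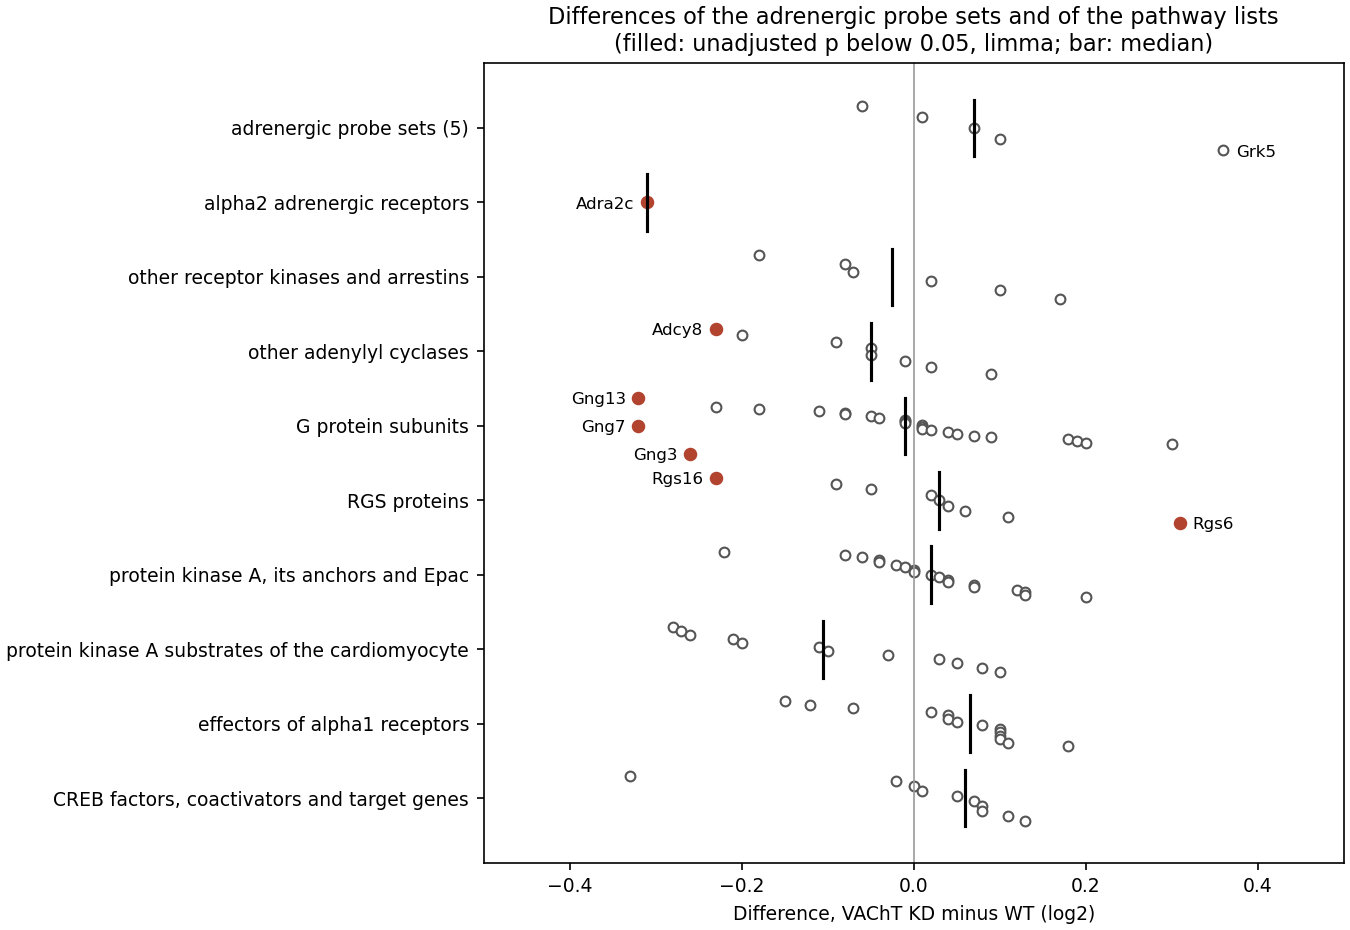
Difference in signal (VAChT KD minus WT, log2, horizontal axis) of the 5 adrenergic probe sets and of the 104 measured genes in 9 pathway lists, 1 point for each gene and a bar at the median of each row. Filled points have an unadjusted p below 0.05 by limma; these are 6 lower genes (Adra2c, Adcy8, Gng13, Gng7, Gng3 and Rgs16) and 1 higher gene (Rgs6), and Grk5, open, is the furthest right at 0.36.

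The list of protein kinase A substrates of the cardiomyocyte also holds the calcium pump gene Atp2a2 and the kinase gene Camk2d, not classed as substrates here. It had a median of -0.10 over 12 genes, 8 of them negative and 0 past the unadjusted p. Phospholamban (Pln), the brake on the calcium pump that protein kinase A releases, read 13.50, 14.51 and 14.48 on VAChT KD 1, 2 and 3, against 14.44, 14.50 and 14.36 on WT 1, 2 and 3 (-0.27, SE 0.26). The calcium pump gene Atp2a2 read 13.54, 14.50 and 14.49 on VAChT KD 1, 2 and 3, against 14.44, 14.51 and 14.42 on WT 1, 2 and 3 (-0.28, SE 0.25). VAChT KD 1 alone was low for both. Cardiac troponin I (Tnni3) read 13.51, 14.49 and 14.49 on VAChT KD 1, 2 and 3, against 14.46, 14.44 and 14.37 on WT 1, 2 and 3 (-0.26, SE 0.25). These 3 genes are in the range of signal in which VAChT KD 1 read low at all 65 probe sets. Without VAChT KD 1 the median of the list was 0.05, with 9 of 12 positive, and without both arrays numbered 2 it was -0.17. Further quantile normalization of the arrays gave a median of 0.00. The smallest p in this list belonged to the phosphatase inhibitor Ppp1r1a at -0.20 (SE 0.09), followed by the calcium channel subunit Cacnb2 at -0.10 (SE 0.08).

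**Figure D4:**
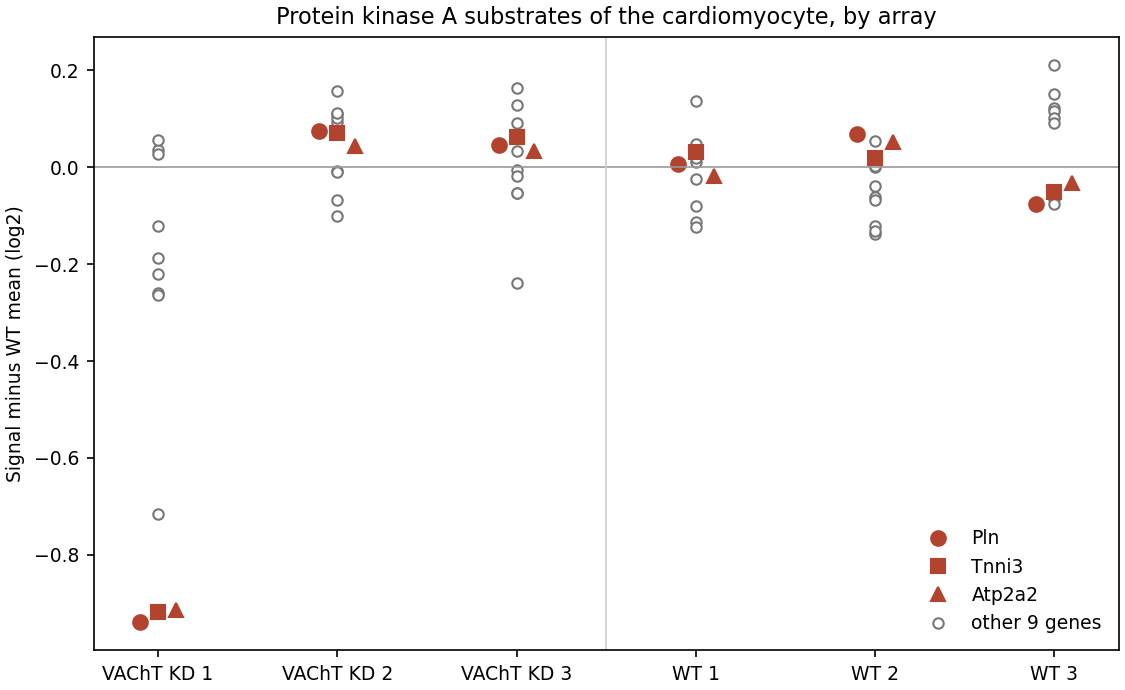
Signal of the 12 genes in the list of protein kinase A substrates of the cardiomyocyte on each array, with Pln, Tnni3 and Atp2a2 filled. Values are differences from the mean of the WT arrays (log2, vertical axis). The list also holds Atp2a2 and Camk2d, which are not classed as substrates here. On VAChT KD 1 these 3 genes lie at 13.50 to 13.54, and on the other 5 arrays at 14.36 to 14.51.

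Markers of other cells that whole heart tissue could hold had overlapping mean levels for smooth muscle (9.20 to 9.28 on VAChT KD and 9.04 to 9.24 on WT arrays), endothelium (10.39 to 10.55 on VAChT KD and 10.30 to 10.59 on WT arrays) and fibroblasts (9.83 to 10.04 on VAChT KD and 9.91 to 10.03 on WT arrays). The same held for macrophages (8.20 to 8.54 on VAChT KD and 8.18 to 8.40 on WT arrays) and adipocytes (7.77 to 7.92 on VAChT KD and 7.84 to 8.09 on WT arrays). Atrial markers read 9.15 to 9.95 on VAChT KD arrays and 9.0 to 9.23 on WT arrays, with the high value on VAChT KD 3, which was also the highest array for Grk5 and Adcy5. Fast skeletal muscle markers read 7.03 to 7.16 on VAChT KD arrays and 7.20 to 7.40 on WT arrays and, like those of sympathetic neurons, did not overlap. Of all single probe sets, 19.2% did not overlap. As deposited, 2 of 5 fast skeletal muscle markers were lower at the unadjusted p, beside 7.81% of all probe sets. With median centring 0 were, and 1 of the sympathetic neuron markers was. The part of these cells in the values of the adrenergic genes was not tested.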

How the data were processed

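Heart RNA of 6 pools of 2 samples, 3 of VAChT KD and 3 of WT mice, was measured on Mouse Gene 1.0 ST arrays. The authors scanned them with Command Console 1.1 and summarised probes with RMA in Partek Genomics Suite 6.5; the values deposited by the authors are RMA signals in log2 units, with no depth. Genome build and annotation version: not given in the sources used here. Names came from the platform annotation (21789 with 1 symbol, 1621 with several, 12146 unlisted). Only symbols listed alone were named, except Gnas/Gnasas1.

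Values were tested as deposited with limma 3.58.1 (lmFit, eBayes) under R 4.3.3 (VAChT KD minus WT, two-sided, Benjamini-Hochberg over 35556 probe sets). Intervals are 95%. An exact permutation test of 3 against 3 cannot go below p = 0.1. For genes with several probe sets the brightest was used. Named were all members, up to 4 genes of a list with an unadjusted p below 0.05 or otherwise the 2 with the smallest p, and the 2 most similar probe sets; Pln, Atp2a2, Tnni3 and Gnb3 were named after their values were seen. Members, lists and rules were chosen with earlier results of these data known. Nothing states that the pools came from separate animals in each array, so p-values measure the spread between arrays. The test was tried on 20 simulated data sets with 200 of 35556 probe sets changed for this comparison. At the adjusted p it found 20.7%, 73.9% and 94.5% of changes of 0.5, 1 and 2 on the log2 scale. The simulated noise was normal and independent between probe sets, with correct labels and without the shifts of whole arrays described above. These rates therefore need not hold for the measured arrays. Alternatives were scaling, filters on dim probe sets, variance models, the methods' ANOVA, weights for arrays, a block for the replicate number, the mean of a gene's probe sets, and arrays left out. The 9 cell type marker lists were described by mean level.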

Additional observations from a re-analysis of the deposited data

How the results depend on the processing

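The number of arrays limits the precision: intervals of the 5 adrenergic probe sets reach 0.83 for Grk5 and at most 0.31 for the others. None of the 5 passed an adjusted p of 0.05 under any of 16 alternatives. In their deviations from group means, same-numbered arrays correlated at 0.06, -0.12 and 0.13, and the other pairs at -0.21 to 0.18. Deviations of 3 arrays from their own mean sum to 0, so these values cannot decide whether numbers pair the arrays. With the replicate block, Grk5 kept its difference of 0.36 (0.03 to 0.69, adjusted p = 0.389 by limma), so that 1 adrenergic probe set passed the unadjusted p, and 0 to 1 did with single arrays left out (1, Grk5, without WT 3). Adcy6 was 0.01 with median centring. Gnas/Gnasas1 was -0.02 with further quantile normalization, -0.01 with array weights and -0.01 to 0.06 with single arrays left out. The cause of these changes was not tested.

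Of all probe sets, 1 was called at the adjusted p; 3 were with robust eBayes and with array weights, and 0 with the filters at the olfactory 95th percentile and median, the methods' ANOVA, the replicate block, any array left out (0 to 0), or both arrays numbered 2 left out. At an unadjusted p of 0.05 and 1.3-fold, the 1348 calls became 581 with the filter at the olfactory 95th percentile, 587 by the methods' ANOVA, 841 to 2173 with single arrays left out and 2800 without both arrays numbered 2. The 1398 higher calls at the unadjusted p became 2390 with median centring, 917 with that filter and 849 to 1743 with single arrays left out, and the 2776 lower calls became 1300, 1585 and 1311 to 2915 in these settings. Among the settings that leave out a single array, each of these 3 counts was lowest without WT 1.

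Of the pathway genes 1 was higher at the unadjusted p. It became 2 with quantile normalization, either filter, the eBayes trend or the replicate block, 3 with median centring, 0 with array weights, and 0 to 3 with single arrays left out (0 without VAChT KD 3 or WT 1, 2 without VAChT KD 1, 3 without WT 3). The 6 lower became 2 with median centring, 3 with the replicate block, 1 without both arrays numbered 2, and 3 to 7 with single arrays left out (3 without VAChT KD 1, VAChT KD 3 or WT 1). Among 34 pathway and marker genes, 3 turned sign: Tnnt2 (0.02 without VAChT KD 1, -0.47 to 0.02 over single arrays left out), Myh6 (0.04 without VAChT KD 1, -0.42 to 0.04) and Kdr (-0.04 without WT 1, -0.04 to 0.25). Chat (choline acetyltransferase), at -0.02 as deposited, became 0.06 with quantile normalization, 0.04 with centring, 0.10 without both arrays numbered 2 and -0.15 to 0.08 with single arrays left out, and Slc18a3 became 0.20 without both arrays numbered 2 and -0.27 to 0.13 with single arrays left out.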

Other observations

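Among the marker genes, chosen here after their values were seen, Bmp10, an atrial growth factor, read 5.19, 5.53 and 7.43 on VAChT KD 1, 2 and 3, against 5.40, 5.53 and 5.64 on WT 1, 2 and 3. Ucp1, the uncoupling protein of brown fat, read 5.85, 5.81 and 5.79 on VAChT KD 1, 2 and 3, against 7.41, 6.02 and 6.07 on WT 1, 2 and 3. In each gene 1 array stood above the other 5: VAChT KD 3 for Bmp10 and WT 1 for Ucp1. The other atrial markers were also highest on VAChT KD 3. Among the other adipocyte markers only Plin1 was highest on WT 1 (7.52). Adipoq (6.13), Cidec (7.49), Pparg (9.54) and Cidea (8.97) were highest on VAChT KD 3, and Fabp4 (12.545) and Lep (6.19) on WT 2.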
